A study of Homo sapiens with 6 samples.

Results

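The genes described here encode the catalytic and regulatory subunits of the phosphoprotein phosphatases PP1 to PP6. They were chosen by symbol alone, as every gene whose name starts with PPP, a digit from 1 to 6 and then C or R, leaving out PPP1R15A and PPP1R15B. The rule found 50 of 10779 genes, of which 39 are among the 8121 genes with a translational efficiency and 47 among the 9570 transcripts with a ribosome occupancy, and 36 have both. PPP1R35, PPP1R9B and PPP4R2 have a translational efficiency only, and 11 have an occupancy only under these symbols: PPP1R12B, PPP1R12C, PPP1R21, PPP1R26, PPP1R3B, PPP1R3D, PPP1R3E, PPP1R9A, PPP2R5B, PPP4R3A and PPP6R2. Ribosome profiling was carried out in HEK293 cells, a line derived from human embryonic kidney, all labelled as treated with control siRNA, with 3 ribosome-protected fragment (RPF) libraries and 3 total RNA libraries of the same lysates. No second condition, genotype or time point was compared. Living cells were treated briefly with cycloheximide, an inhibitor of elongation, at 100 µg/ml, and were washed and lysed in its presence, and the line is a single cell line grown in culture. All 5 genes known to be expressed in this line that were looked for (NEFL, NEFM, INA, VIM and LIN28B) were in both tables, and of 6 markers of other cell types only COL1A1 was, with 344 estimated reads and an mRNA abundance of 0.0425 times the median transcript. The methods describe the procedure as carried out in triplicate from plates of cells and do not say how far the cultures were independent, so p-values measure the spread between these 3 samples.

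Phosphoprotein phosphatases remove phosphate from serine and threonine. A small number of catalytic subunits is shared among many regulatory partners, which bring the enzyme to its substrates or inhibit it: PP1 works mostly as pairs of a catalytic and a PPP1R subunit, whereas PP2A is a trimer of catalytic subunit, scaffold and one exchangeable B subunit. Calcineurin (PP3) needs a calcium-binding B subunit, PP4 and PP6 have their own regulatory partners, and PP5 carries its regulatory domain in the same polypeptide. The cell is known to hold PP2A catalytic subunit within narrow limits.

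Translational efficiency is the deposited ratio of RPFs to total RNA in each replicate, without unit. Over the 39 subunits it ranged from 0.0941 for PPP2R2D to 5.66 for PPP1R11 with a median of 0.378, against a median of 0.385 over all genes. Each gene was compared with the median of all genes by limma on log2(ratio + 0.01), with Benjamini-Hochberg adjustment over all 8121 genes. Of the subunits, 17 lay above the median and 18 below it, and 4 were not called (PPP3CA, PPP5C, PPP6R1 and PPP6R3). As 44.7% of all genes were called higher and 44.6% lower, these counts are close to the background, and the share called in either direction was 89.7% of the subunits and 89.3% of all genes. The replicates of the subunits correlated with Pearson coefficients of 0.991 in each pair, across genes on the log2 scale, and genes are not independent replicates. Of the 11 catalytic subunits 6 were higher and 3 lower, with a median of 0.596, and of the 28 regulatory subunits 11 were higher and 15 lower, with a median of 0.330.

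**Figure D1:**
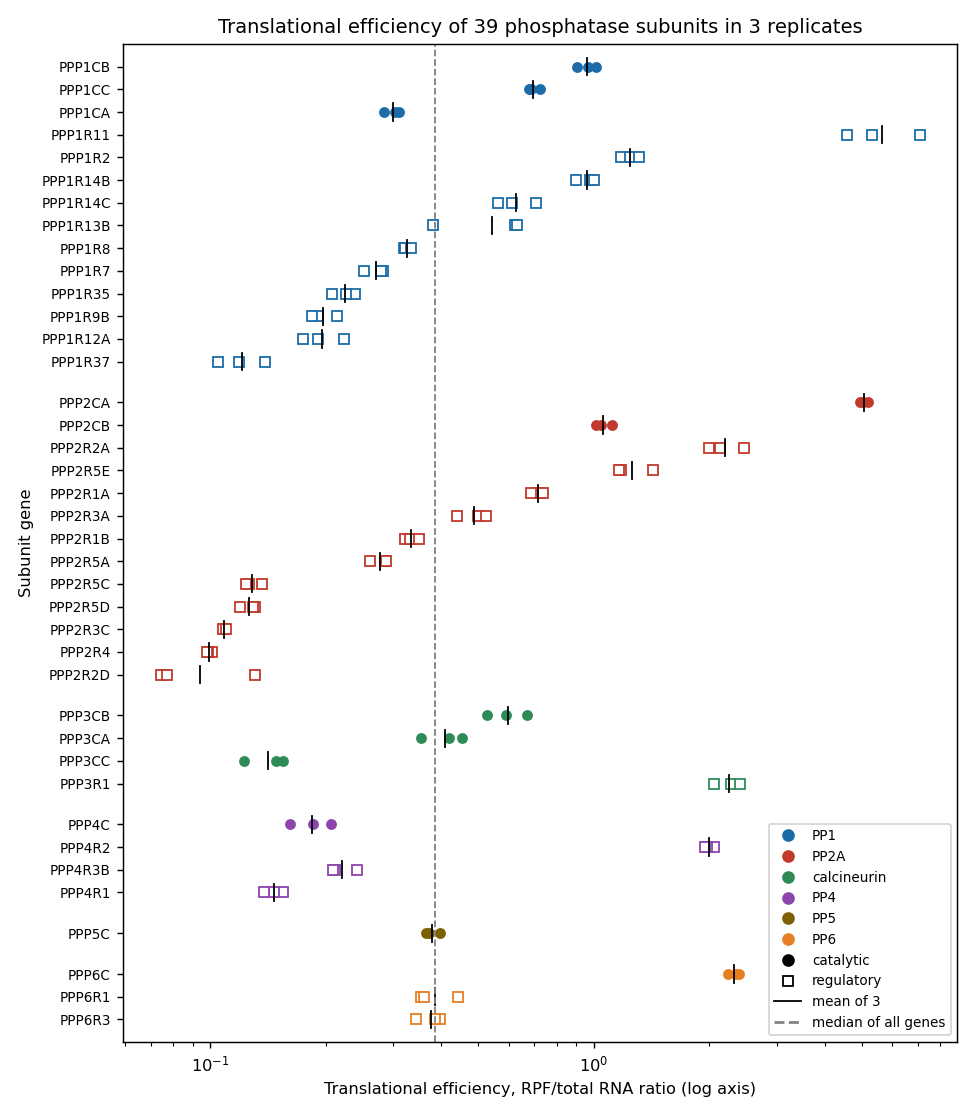
Translational efficiency (ratio of RPFs to total RNA, log axis) of the 39 subunits in each of 3 replicates, grouped by phosphatase. Filled circles are catalytic and open squares regulatory subunits, short lines are means of 3 and the dashed line is the median of all genes, 0.385. Replicates of a gene lie close together beside the distance between genes, apart from PPP1R13B and PPP2R2D, where 1 replicate stands away from the others.

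Among the catalytic subunits, PPP2CA, the alpha isoform of PP2A, had the highest translational efficiency, with 4.94, 5.20 and 5.02 in replicates 1 to 3 (log2 difference from the median of all genes 3.69 ± 0.05 SE, adjusted p = 1.04e-06 by limma). It ranked 189 of 8121 genes. Its paralog PPP2CB had 1.11, 1.02 and 1.05 (1.44 ± 0.05 SE, adjusted p = 8.06e-06 by limma). The values of the PP2A pair did not overlap, and PPP2CA was 4.77 times higher on the means. PPP6C, the catalytic subunit of PP6, followed PPP2CA with 2.34, 2.24 and 2.39 (2.57 ± 0.05 SE, adjusted p = 1.63e-06 by limma).

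The PP1 catalytic subunits fell into a clear order. PPP1CB, the beta isoform that pairs with the myosin-targeting subunits, had 0.904, 1.02 and 0.966. PPP1CC (gamma) had 0.676, 0.723 and 0.685. PPP1CA (alpha) had 0.285, 0.311 and 0.303 and lay below the median of all genes (log2 difference −0.35 ± 0.05 SE, adjusted p = 0.0019 by limma), whereas PPP1CB and PPP1CC lay above it by 1.30 and 0.84. No replicate of one PP1 gene reached into the range of another.

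Of the calcineurin catalytic subunits, PPP3CB (beta) had 0.591, 0.527 and 0.670 and was called higher. PPP3CA (alpha) had 0.355, 0.455 and 0.419, on both sides of the median of all genes, and was not called (adjusted p = 0.35 by limma). PPP3CC (gamma) had 0.155, 0.122 and 0.148 and was called lower (log2 difference −1.38 ± 0.08 SE). PPP4C, the catalytic subunit of PP4, was low as well with 0.161, 0.206 and 0.185, and PPP5C had 0.371, 0.396 and 0.366 (adjusted p = 0.712 by limma), at the median.

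Pairs of catalytic subunits were compared within PP1, PP2A and calcineurin and among the single subunits of PP4, PP5 and PP6, 10 pairs in all. In each of the 10 pairs the 3 values of one gene did not overlap those of the other, as was the case for 90.2% of all pairs of genes in the table. The means differed from 1.38 times (PPP1CB over PPP1CC) to 12.6 times (PPP6C over PPP4C). The exact two-sided permutation test gave p = 0.1 for each pair (adjusted over the 10 pairs, 0.1), which is the smallest p that 3 against 3 values allow, so no pair could pass 0.05. The closest pairs were PPP1CB and PPP1CC, with a log2 difference of 0.41 to 0.49 within a replicate, and PPP3CB and PPP3CA, where the log2 difference of PPP3CA from PPP3CB was −0.72 to −0.21.

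Of the 11 regulatory subunits of PP2A 4 were called higher and 7 lower, beside 44.7% and 44.6% of all genes, and each class with more than 1 member had members on both sides of the median of all genes. PPP2R1A, the main scaffold, had 0.719, 0.735 and 0.687 and was called higher, and PPP2R1B, the other scaffold, had 0.322, 0.332 and 0.350 and was called lower (adjusted p = 0.0185 by limma). The call of PPP2R1B was lost without replicate 1 (adjusted p = 0.0707) or replicate 2 (adjusted p = 0.0673). Of the B55 subunits, PPP2R2A had 2.00, 2.46 and 2.14 (log2 difference 2.48 ± 0.07 SE), while PPP2R2D, the lowest of all subunits, had 0.0746, 0.0771 and 0.131 (−1.96 ± 0.16 SE, adjusted p = 0.00015 by limma). Replicate 3 of PPP2R2D stood above the other two, and all 3 stayed below the median of all genes.

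Of the B56 subunits, which recognise a short motif in their substrates, PPP2R5E was high with 1.18, 1.16 and 1.43. PPP2R5A (0.262, 0.286 and 0.287), PPP2R5C (0.126, 0.124 and 0.136) and PPP2R5D (0.130, 0.120 and 0.129) were all called lower, and the lowest value of PPP2R5E was over any value of these 3. PPP2R5B was not among the genes with a translational efficiency. The calcium-binding B″ subunit PPP2R3A had 0.498, 0.441 and 0.524 and was called higher, a call that was lost when the mean of all log2 values, which lies 0.166 above their median, served as reference (adjusted p = 0.0566 by limma). PPP2R3C, of the same class, had 0.109, 0.108 and 0.110, and PPP2R4, an isomerase that activates PP2A, had 0.101, 0.0986 and 0.0981. Both ranked near the bottom of the table (7404 and 7538 of 8121), and their replicates differed by a SD of 0.000862 and 0.00161.

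Of the 11 regulatory subunits of PP1 with a translational efficiency 5 were called higher and 6 lower, close to the 44.7% and 44.6% of all genes. PPP1R11 (inhibitor-3) had 5.33, 4.57 and 7.07, the highest of all 39 subunits (log2 difference 3.83 ± 0.13 SE, adjusted p = 6.03e-06 by limma), and its replicates spread more widely than those of PPP2CA, with an SD of 1.28. PPP1R2 (inhibitor-2) had 1.18, 1.24 and 1.31. PPP1R14B and PPP1R14C, inhibitors that act once phosphorylated, had means of 0.960 ± 0.0549 and 0.628 ± 0.0736 (SD, n = 3) and were both called higher by limma.

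PPP1R8 (NIPP1, a nuclear inhibitor and targeting subunit) had 0.321, 0.322 and 0.334, and PPP1R7 (SDS22, which binds newly made PP1) had 0.252, 0.282 and 0.279. PPP1R12A, the myosin-targeting subunit MYPT1, had 0.224, 0.174 and 0.190. PPP1R9B (spinophilin, an actin-binding scaffold) had a mean of 0.196 ± 0.0156, PPP1R35 one of 0.224 ± 0.0159 and PPP1R37 one of 0.121 ± 0.0169 (SD, n = 3). These are the 6 that were called lower by limma. PPP1R13B (ASPP1, a partner of p53) had 0.382, 0.622 and 0.630 and was called higher with an adjusted p of 0.039 by limma, and that call was lost without replicate 2 (adjusted p = 0.154) or replicate 3 (adjusted p = 0.121) and with the mean as reference (adjusted p = 0.132).

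PPP3R1, the calcium-binding subunit of calcineurin, had 2.28, 2.06 and 2.41, above each of the 3 catalytic subunits it pairs with. The PP4 subunits were far apart: PPP4R2, which with PPP4R3 directs PP4 to sites of DNA repair, had 2.06, 1.98 and 1.95, whereas PPP4R3B had 0.211, 0.210 and 0.241 and PPP4R1 had 0.155, 0.147 and 0.138. PPP4R3A is listed with a translational efficiency under its older symbol SMEK1, which the rule does not take, and had 0.216, 0.232 and 0.232. The PP6 subunits PPP6R1 (0.442, 0.354 and 0.361) and PPP6R3 (0.396, 0.345 and 0.385) lay at the median of all genes and were not called, beside the high value of the catalytic subunit PPP6C.

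Ribosome occupancy is a second readout from the same libraries: RPF counts that the authors normalised for library size and divided by the TPM of the mRNA, per codon and in frame, with the replicates combined, so that a single value has no error. The mean over the CDS had a median of 0.0460 over the 47 subunits, against 0.0450 over all transcripts. It was 0.130 over the catalytic and 0.0418 over the regulatory subunits. The highest values were those of PPP3R1 (0.427), PPP6C (0.387), PPP2R2A (0.289), PPP2R5E (0.250) and PPP1R2 (0.189), all of which were high in translational efficiency too. Across the 36 subunits with both readouts the Spearman coefficient was 0.605, and across 6912 genes 0.688, as a description across genes that share the RPF and total RNA libraries.

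PPP2CA and PPP1R11 stood apart. PPP2CA exceeded PPP2CB 4.77 times in translational efficiency, but their mean CDS occupancy was 0.151 and 0.152. The ratio of translational efficiency to CDS occupancy was 4.35 times the median gene for PPP2CA and 0.902 times for PPP2CB. For PPP1R11, with a CDS occupancy of 0.0582, it was 12.6 times the median gene, and for PPP1R14B 4.91 times. PPP2R2D was the opposite case, at 0.188 times. For the other catalytic pairs both readouts kept 1 order: PPP1CB, PPP1CC and PPP1CA in PP1, PPP3CB, PPP3CA and PPP3CC in calcineurin, and PPP6C, PPP5C and PPP4C among the single subunits.

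Reads of a gene that shares sequence with another gene cannot be placed with certainty. Of the 30-mers in its CDS, PPP2CA shared 97.1% with transcripts of other annotated genes, PPP3R1 89.7%, PPP1R14B 69.2%, PPP1R2 59.1%, PPP4R2 53.7%, PPP1CB 45.5%, PPP2R5C 30.3%, PPP1R11 27.0%, PPP1R12B 25.2%, PPP2R5E 20.4% and PPP2CB 17.2%, and no other subunit reached 10%. The other gene with most of the shared 30-mers was SPDYA for PPP1CB (45.5%), PPP1R14BP3 for PPP1R14B (64.8%) and PPP1R2B for PPP1R2 (48.2%). For PPP2CA (89.0%) and PPP3R1 (89.7%) it was a gene listed without a symbol. Of the 27 subunits with under 5% shared 30-mers, 8 were called higher and 16 lower, with a median translational efficiency of 0.300, and the other 12 had a median of 1.15. Beside them stand 44.7% higher and 44.6% lower over all genes, for which shared 30-mers were not computed. Among the 27, PPP2R2D (called lower, 4.75%) was counted on a shorter transcript that was not matched by CDS length, and PPP1R35 and PPP1R9B were matched by symbol alone. PPP6C and PPP2R2A, both high, shared 0% and 0.818%. Across the 39 subunits, translational efficiency and the percent of shared 30-mers had a Spearman coefficient of 0.431. Values of the subunits with much shared sequence are therefore uncertain, and the part of shared sequence in them was not tested.

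**Figure D2:**
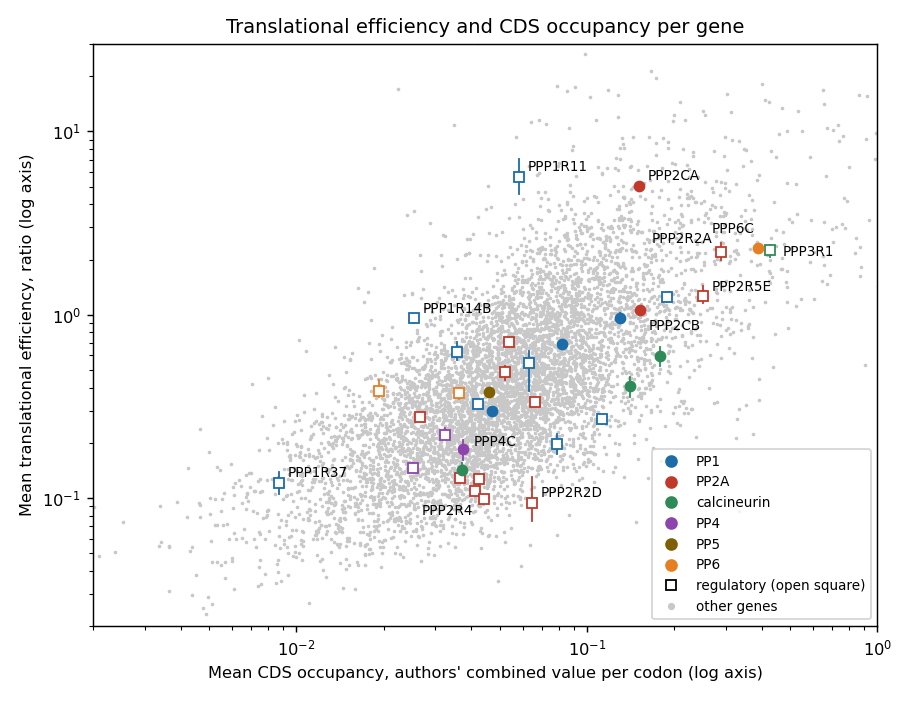
Mean translational efficiency (ratio, log axis) against mean CDS occupancy (authors' combined value per codon, log axis) of the 36 subunits with both readouts, with lines from the lowest to the highest replicate, and of other genes in grey (a few lie outside the axes). PPP2CA and PPP2CB have almost the same occupancy, 0.151 and 0.152, but lie 4.77 times apart in translational efficiency, and PPP1R11 and PPP1R14B lie above the other subunits of like occupancy.

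The number of reads behind the occupancy was recovered from the low values of each transcript, which are sums of whole multiples of up to 3 steps, each taken as what 1 read is worth in one or another of the combined libraries. The 47 subunits held an estimated 327456 in-frame reads in the CDS, with a median of 4667 and a range from 30 for PPP1R3E to 30983 for PPP2R1A. The mean worth of a read over these low values also gives the relative mRNA abundance, which is on the per-length TPM scale. PPP1R14B was the most abundant subunit mRNA, at 17.01 times the median transcript, followed by PPP4C at 12.2 times, PPP1CC at 10.7 times and PPP2R1A at 10.6 times. PPP4C and PPP6C had similar numbers of CDS reads, 12818 and 13817, and PPP4C mRNA was 9.56 times more abundant, so that PPP6C had 10.4 times the CDS occupancy, a value that is divided by abundance. Abundance and translational efficiency had a Spearman coefficient of 0.0234 across the 36 subunits, beside 0.146 over the 6912 genes in both tables. Of the glycogen-targeting subunits of PP1, PPP1R3D and PPP1R3E had the least abundant mRNAs, at 0.101 and 0.108 times the median transcript, and these values rest on 84 and 30 reads.

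With windows of 75 codons at either end of the CDS, the catalytic subunits had a higher occupancy in the first window and the B56 subunits in the last. The mean occupancy of the last 75 codons was divided by that of the first 75. The median ratio was 0.867 over the 47 subunits and 1.01 over all transcripts with a CDS over 300 nt. In each of the 11 catalytic subunits the first window was the higher one, with ratios from 0.244 for PPP1CA to 0.939 for PPP3CA, whereas 49.1% of all transcripts and 16 of 36 regulatory subunits had a higher first window. With windows of 50 codons 8 of the 11 kept this order, beside 47.9% of all transcripts, with PPP1CB, PPP3CB and PPP3CC going the other way. The ratio of the 11 then ranged from 0.225 to 1.18, with PPP3CA at 0.543. The median was 1.03 over all 47 subunits and 1.05 over all transcripts. When the first 15 and last 5 codons were left out, 10 of the 11 kept a higher first window, beside 51.7% of all transcripts, and PPP6C did not. Exon 1 was nearly empty in PPP3CB (mean 0.000632, 1 read) and PPP3CC (0.00199, 3 reads).

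The 5 B56 subunits each had a higher last window, with ratios of 2.26 for PPP2R5A, 2.82 for PPP2R5B, 1.72 for PPP2R5C, 2.68 for PPP2R5D and 3.09 for PPP2R5E, and the direction was the same in 5 of 5 with both other window choices. The sizes moved with the window: with 50 codons the ratio was 12.5 for PPP2R5A and 1.42 for PPP2R5B, and without the first 15 and last 5 codons it was 8.13 for PPP2R5B and 1.46 for PPP2R5E. PPP2R5B rests on 159 reads, and its last exon had a mean of 0.00313, against 0.0109 over the codons before it. In PPP2R5A exon 1, codons 1 to 61, had a mean of 0.00251 and 29 reads. The 3 PP6 regulatory subunits all had a higher first window, with 0.0946 for PPP6R1, 0.0662 for PPP6R2 and 0.360 for PPP6R3. With 50 codons the ratio was 0.0245 for PPP6R1 and 0.166 for PPP6R3, and without the first 15 and last 5 codons it was 0.153 for PPP6R1 and 0.112 for PPP6R2, in the same direction. In PPP6R2 the mean was 0.0142 in the first coding exon and 0.000799 in the last, without a steady fall, as exons 4, 5, 10 and 17 lay above the first (0.0157, 0.0171, 0.0144 and 0.0279). In PPP6R1 the coding exons from exon 18 on had means below 0.01, against 0.0341 in exon 1. The highest ratio with 75 codons was that of PPP1R12C, a myosin-targeting subunit, at 26.0, where the first 75 codons had a mean of 0.000496 and the whole CDS 411 reads. It was followed by the poorly covered PPP1R3E (8.68) and by PPP1R14C (8.14). With 50 codons PPP1R14C was highest at 24.4, ahead of PPP1R12C at 23.5, and without the first 15 and last 5 codons PPP1R12C was at 81.9 and PPP1R14C at 3.38.

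**Figure D3:**
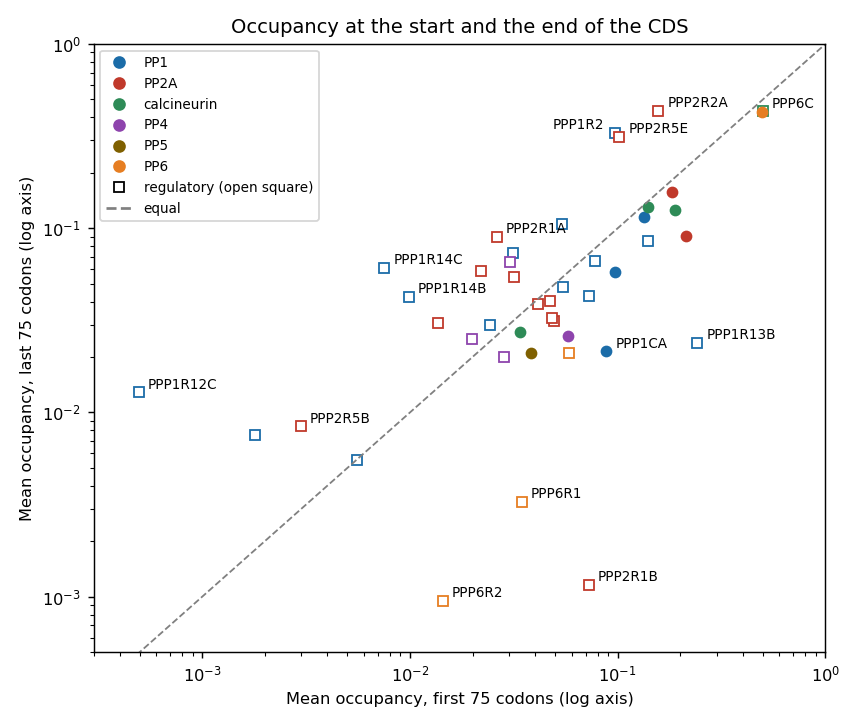
Mean occupancy of the last 75 codons against that of the first 75 codons of the CDS (both log axes) for the subunits with at least 100 estimated reads, with filled circles for catalytic and open squares for regulatory subunits. Catalytic subunits lie below the dashed line of equality, the B56 subunits above it, and PPP2R1B, PPP6R2, PPP6R1 and PPP1R13B far below it.

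The lowest ratio, 0.0160, was that of the scaffold PPP2R1B, which was also lowest with 50 codons (0.0232) and without the first 15 and last 5 codons (0.0766), and its occupancy fell in a step at an exon boundary. PPP2R1B lies on chr11:111597632-111637113, minus strand (GENCODE 44 on GRCh37). Its occupancy was taken by the authors over a transcript of 668 codons including the stop codon. Exon 14, codons 567 to 597, had a mean occupancy of 0.110 and an estimated 689 reads. Exon 15, codons 598 to 637, had 0.00150 and 12 reads, and exon 16, codons 638 to 668, had 0.000883 and 6 reads. The other scaffold, PPP2R1A (chr19:52674189-52732771, plus strand), ends at codon 590, and had no such step: its exon 14, codons 555 to 585, had a mean of 0.112 and its ratio of last to first window was 3.43. The 2 scaffolds align over 589 codons, with 35.7% of codons identical, and their occupancies per codon had a Spearman coefficient of 0.349. A fall at an exon boundary was also seen in PPP6R3. Its exon 22 had a mean occupancy of 0.0117 and 243 reads, and its last exon, exon 23 with 15 codons, had 0.000103 and 1 read. Which transcripts of PPP2R1B and PPP6R3 were expressed was not tested.

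**Figure D4:**
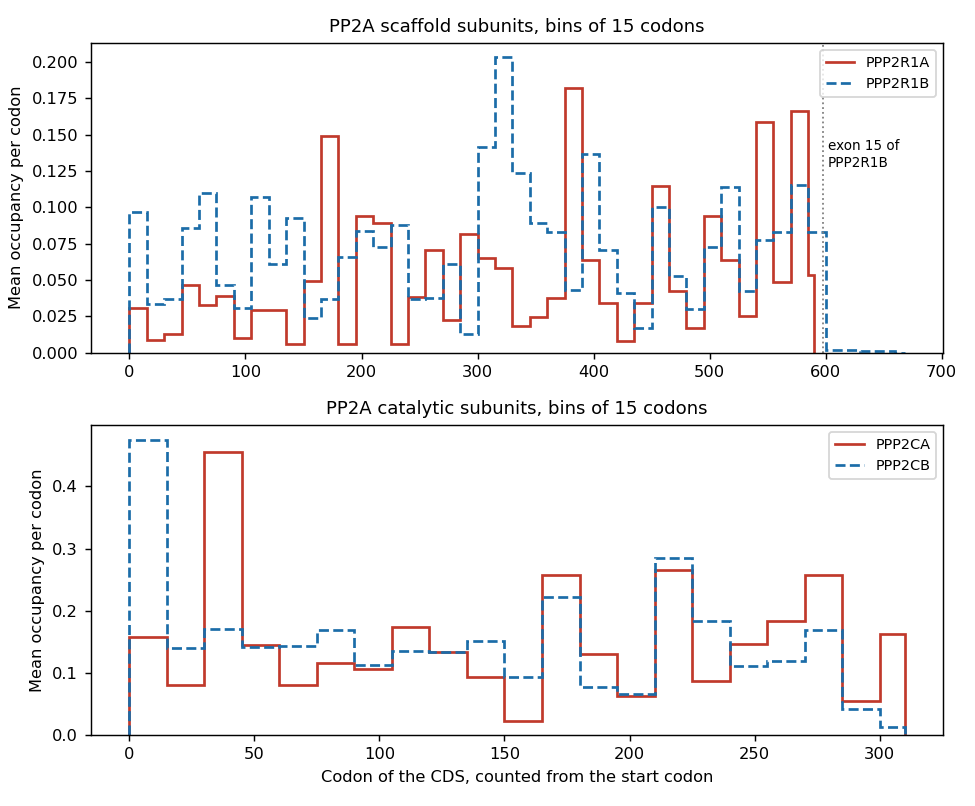
Mean occupancy per codon (authors' combined value, linear axis) in bins of 15 codons along the CDS, for the PP2A scaffold subunits (top) and catalytic subunits (bottom). PPP2R1B falls to near 0 at the start of exon 15 (codon 598, dotted line), whereas PPP2R1A runs on to its end at codon 590, and PPP2CB is highest in the first bin and PPP2CA in the bin around codon 35.

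In PPP2CA (chr5:133529726-133561764, minus strand) the highest codon was 35, the first of exon 2, with 6.66% of all CDS reads (95% Wilson interval 6.38% to 6.96%, counting error only). In PPP2CB it was codon 223, with 3.32%. Of their 309 aligned codons 54.1% are identical, and they share no 30-mer with each other. Their occupancies had a Spearman coefficient of 0.458 over these codons, the highest of the 12 paralog pairs compared, and those of the 3 PP1 pairs were 0.263, 0.364 and 0.337.

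A single codon held over 10% of CDS reads in 4 of the 47 subunits (8.51%), against 15.1% of all transcripts. All 4 encode regulatory subunits of PP1: PPP1R14B, PPP1R3E, PPP1R14C and PPP1R11. Their CDSs are short, with 148, 280, 166 and 127 codons. The median was 487 over the subunits and 328 over the catalytic subunits, and the part of CDS length in these shares was not tested. Codon 121 of PPP1R14B held 1330 of 5847 reads, 22.8% (95% Wilson interval 21.7% to 23.8%). The peak of PPP1R3E rests on an estimated 4 of 30 reads, with an interval from 5.31% to 29.7%, so that a share under 10% lies within it. Codon 134 of PPP1R14C held 81 of 675 reads, 12.04% (9.76% to 14.7%). These inhibitors are paralogs, and both peaks lie in exon 3, a coding exon of 11 codons in either gene. Exon 3 had a mean occupancy of 0.0997 in PPP1R14B, against 0.0253 over its CDS, and of 0.119 in PPP1R14C, against 0.0358. In the alignment, codon 121 of PPP1R14B pairs with codon 137 of PPP1R14C, which is 3 codons from its peak, and the 2 genes share no 30-mer. Both peaks and that of PPP1R11 are shown with 4 codons on either side, read from GRCh37 and with the codon of the peak in capitals:
PPP1R14B, codon 121, chr11:64012402-64012428, minus strand, exon 3: ctggttgactgtTACaaacccacagag
PPP1R14C, codon 134, chr6:150535961-150537983, plus strand, across exons 2 and 3: caggaagctcttGTAgactgctacaaa
PPP1R11, codon 49, chr6:30036430-30036456, plus strand, exon 2: agtgacactgtgGACaatgaacacatg
In PPP1R11 that codon held 140 of 1233 reads, 11.3% (9.70% to 13.2%). No catalytic subunit had such a codon, and the highest share among them was the 6.66% of PPP2CA.

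In the 5′UTR, 8 subunits had over 5% of their in-frame reads there (17.02%, against 12.2% of all transcripts), and all 8 were regulatory. Several of the 8 rest on few reads: PPP1R26 had 6 of 74 reads there (95% Wilson interval 3.77% to 16.6%), PPP1R3D 6 of 90 and PPP1R3E 15 of 55, and the interval of PPP6R2 began at 4.89%. In the last 17 codons of 5′UTRs over 100 nt, 26 of 41 subunits (63.4%) had a value above 0, against 70.2% of all transcripts. The highest means in this window were those of PPP3CA (0.0275), PPP1R2 (0.0137) and PPP6C (0.0133), values that are divided by abundance and have no error. The whole 5′UTRs of these mRNAs held 73, 214 and 26 reads, and 23 of those of PPP6C lay on codon −4. The 3 mRNAs with the most upstream reads had them at different kinds of place.

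PPP4R3B (chr2:55774428-55846015, minus strand), a PP4 subunit of low translational efficiency, had the most, 1076 of 5877 reads or 18.3% (95% Wilson interval 17.3% to 19.3%). Of these, 770 (71.6%) fell on the codons that overlap a short upstream open reading frame (uORF), whose AUG lies 304 nt before the start codon and which has 4 codons before its stop. A further 138 (12.8%) fell on a uORF of 22 codons whose AUG lies 134 nt before the start codon. PPP6R3 (chr11:68228199-68382802, plus strand) had 387 upstream reads, 2.53% of its reads. Of these 304 (78.7%) fell on a uORF of 2 codons whose AUG lies 240 nt before the start codon, 297 of them on the AUG itself. PPP1R11 (chr6:30034486-30038110, plus strand) had 452 of 1686 reads upstream, 26.8% (24.7% to 28.97%), with no AUG in its matched 5′UTR. Its reads were spread over neighbouring codons and highest at codon −24. The uORFs are shown with AUG and stop codon in capitals, and the site of PPP1R11 with its highest codon in capitals:
PPP4R3B uORF, chr2:55844703-55844732, minus strand, exon 1: ttacaagATGgcggatctgTAGtagttacc
PPP6R3 uORF, chr11:68272625-68272654, plus strand, exon 2: gctcagagagATGtggTGActtgctcaaat
PPP1R11 5′UTR, chr6:30035104-30035130, plus strand, exon 1: cgcttctcttagACCtcagcgacagaa
The occupancy table holds only reads in the frame of the main CDS, so that a uORF in another frame, as in PPP4R3B, is seen only in part.

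**Figure D5:**
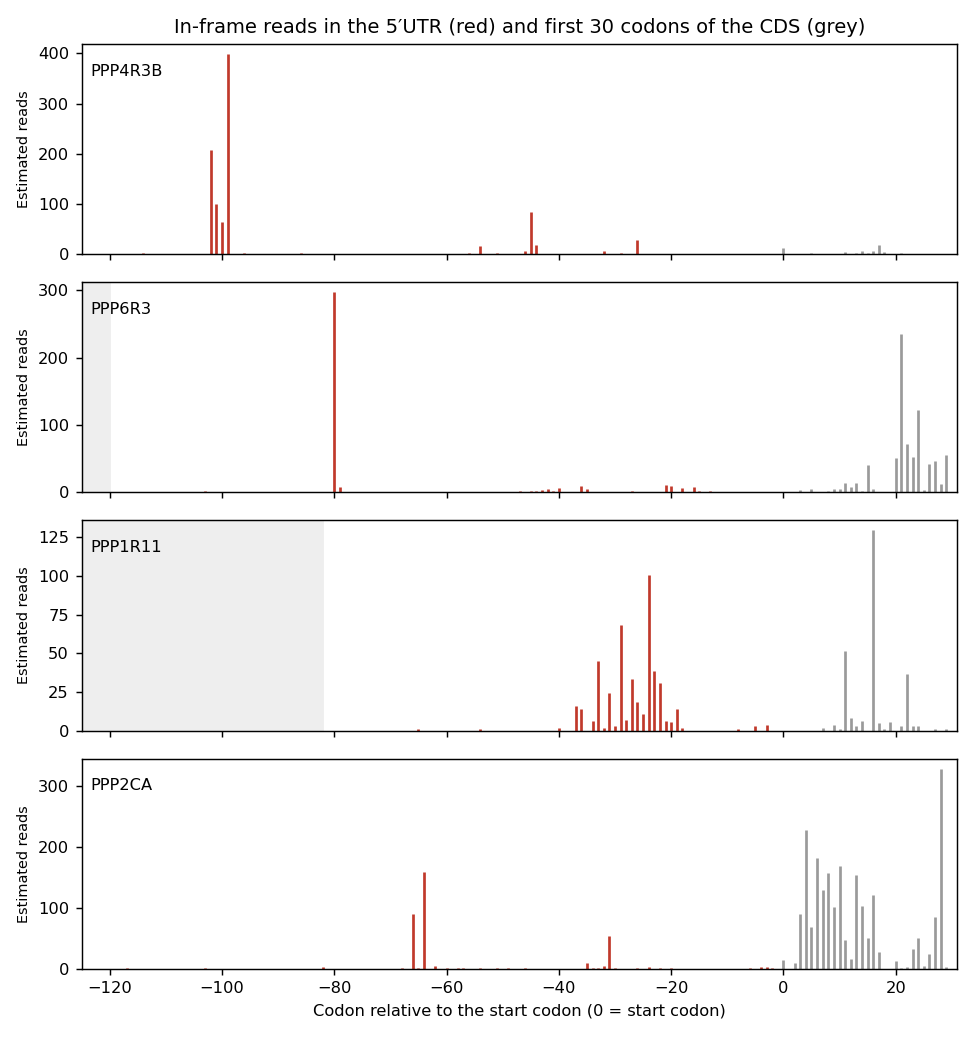
Estimated in-frame reads per codon in the 5′UTR (red) and the first 30 codons of the CDS (grey) of 4 mRNAs, against the codon relative to the start codon, each panel on its own linear axis. Grey shading lies beyond the 5′ end of the transcript. Most upstream reads of PPP4R3B (71.6%) sit on neighbouring codons that overlap the uORF, and most of those of PPP6R3 (76.4%) on a single codon at −80, those of PPP1R11 are spread around codon −24, and those of PPP2CA lie near codon −64.

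Upstream AUG codons stood in 23 of 42 matched 5′UTRs of subunits (54.8%), against 44.1% of 8242 matched transcripts. The subunits had longer 5′UTRs, with a median of 82 codons against 56 over all transcripts, and the part of length was not tested. A further uORF with most of the upstream reads was that of PPP1R14B, with 24 codons and 56 of 59 reads. In PPP6R2 a uORF of 27 codons in the frame of the CDS held 69 of 72 reads, and other uORFs overlap it. In PPP2R4 a uORF that runs into the CDS held 21 of 22. Smaller majorities lay on uORFs of PPP1R3E (10 of 15), PPP2R5E (18 of 30) and PPP2R5A (14 of 27). Other subunits with an upstream AUG went the other way, among them PPP2R3C (0 of 139), PPP3CA (10 of 73) and PPP4R3A (at most 4 of 86 on a uORF). Where upstream reads passed a minimum number, the highest upstream codon overlapped an AUG in 4 of 21 subunits (19.05%), against 15.15% of 2759 matched transcripts. PPP2CA had 356 upstream reads (1.205%), highest at codon −64, and no AUG in its matched 5′UTR. That 5′UTR is shorter than the 129 codons of the occupancy list, so the part further upstream was not searched. PPP1R2 had 214 (2.08%), highest at codon −10.

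Partners without a PPP symbol were drawn from lists by function. Of 20 PP1 partners 16 had a translational efficiency, 10 called higher and 6 lower, and of 16 PP2A regulators 12 had one, 6 higher and 6 lower, beside 44.7% higher and 44.6% lower over all genes. TIPRL, which binds PP2A-type catalytic subunits, had 1.57, 1.57 and 1.57, and PPME1, the methylesterase that acts on the PP2A catalytic subunit, had 1.07, 1.06 and 1.12. LCMT1, the methyltransferase opposed to it, had 0.314, 0.262 and 0.317. STRN4, a striatin-type B subunit of PP2A, had 0.0674, 0.0641 and 0.0659, below all 39 subunits. Of the PP4 and PP6 partners 2 were higher and 2 lower. ANKRD52, a PP6 ankyrin subunit, had 2.05, 1.91 and 1.82, and its relative ANKRD28 had 0.203, 0.189 and 0.203. The other partner called lower was SMEK1, the older symbol of the subunit PPP4R3A. Of the calcineurin regulators and targets 4 of 10 were present, with FKBP1A (3.38, 3.28 and 2.61), the target of FK506, and CHP1 higher, and the calcineurin inhibitors RCAN1 (0.113, 0.111 and 0.165) and RCAN3 lower. The metal-dependent PPM phosphatases, which work without such subunits, had 7 higher, 3 lower and 2 not called of 12, with a median of 0.572. With 4 to 16 genes in a list, these counts say nothing particular to any of them.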

How the data were processed

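Ribosome profiling of HEK293 cells gave 3 RPF and 3 total RNA libraries. Per the methods, adapters were removed with Cutadapt and duplicates with cd-hit-dup, RPFs were aligned to the hg19 transcriptome with bowtie and reads of 28 to 30 nt were placed by an offset. The methods name Hisat2 for total RNA, whereas the submitters' processing notes list TopHat2 2.1.1 beside cutadapt 1.16, Bowtie 1.1.2 and HTSeq 0.9.1. Translational efficiency was deposited as a linear ratio (RPFs over total RNA) for each replicate, by a formula that the methods do not state. The deposited occupancy lists hold in-frame RPF counts per codon, which the authors normalised for library size and divided by TPM, with replicates combined. The ratio gives no depth. Lists of 31 transcripts, none of them subunits, were broken over lines and were rejoined.

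The ratios, as log2(ratio + 0.01), were compared with the median of all values in limma 3.58.1 (R 4.3.3), at an FDR of 0.05 and without a filter. An RPF library and the total RNA library of its number share a lysate, so the pairing is part of the ratio. Reads were recovered as whole multiples of 3 steps per transcript, up to 40 times the smallest step, and larger values are estimates. Both steps were tested on simulated data. Of 200 genes moved by 1 on the log2 scale limma called 171, and it called 9 unmoved genes. Read numbers of 500 simulated transcripts were recovered with a largest error of 1.38%. Those transcripts were built from the same steps that the recovery assumes, so that assumption was not tested. Sequences come from GENCODE 44 lifted to GRCh37, matched by symbol and CDS length (46 of 47 subunits, not PPP2R2D). Intervals cover counting error only. Python 3.11.15, numpy 2.4.6, pandas 2.3.3, scipy 1.17.1 and Biopython 1.88 were used.

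The members follow from the rule on symbols alone, and this rule and the lists were set with earlier results of these data known. Named are all catalytic, PP2A, calcineurin, PP4 and PP6 subunits, the PP1 regulators by rank of translational efficiency or as well-known inhibitors, and those with the highest 5′UTR occupancy, single-codon shares or window ratios. STRN4, ANKRD52 and other partners were picked from the lists after their values were seen. No protein sequences were used here.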

Additional observations from a re-analysis of the deposited data

Results flagged for a closer look

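In-frame reads in the 3′UTR, which no comparison above uses, were rare in the subunits, with 139 in all, or 0.0420% of their reads against 0.349% over all transcripts, and none in 20 of the 47 mRNAs. They exceeded 3 reads, the limit that a count of 0 allows, in 10 mRNAs. By number, the most were found in PPP1CC, with 23 of 26092 reads (0.0882%), in PPP2R4, with 21 of 4016 (0.523%), and in PPP2R3A, with 16 of 707 (2.26%, 95% Wilson interval 1.40% to 3.64%). The shares were larger in PPP1R3E, with 10 of only 55 reads (18.2%), and in PPP1R9A, with 10 of 387 (2.58%). There are no control samples for these reads.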

How the results depend on the processing

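The counts of called genes and subunits stayed within 1.5 times under a pseudocount of 0.1, a trend in the spread, a minimum mean of 0.05, the mean as reference and each replicate left out, with 7015 to 7321 genes called, 15 to 17 subunits higher and 17 to 20 lower. With the replicate block, 7265 genes, 17 subunits higher and 18 lower were called, and no call of a subunit changed. The block could not change the order of the 10 catalytic pairs, as their replicates do not overlap. The median translational efficiency of the subunits was 0.365 to 0.387 with a replicate left out. With only the subunits of under 5% shared 30-mers, an alternative chosen after seeing the data, it was 0.300 and 8 subunits were higher, of 27 that remained. The direction turned for subunits at the median: on the log2 scale PPP6R1 was at −0.0150 with the minimum of 0.05, at −0.165 with the mean as reference and from −0.103 to 0.0521 with a replicate left out, PPP6R3 from −0.0750 to 0.0205 and PPP5C from −0.0619 to 0.00913 with a replicate left out, and PPP3CA at −0.0795 with the mean as reference; the cause was not tested. PPP5C and PPP6R3 were called lower with the mean as reference. The median CDS occupancy was 0.0457 without the first 15 and last 5 codons and 0.0437 without the highest codon. The median ratio of last to first window was 0.918 without the first 15 and last 5 codons and, with 50 codons, 1.03, on the other side of 1. Over all transcripts with a CDS over 300 nt these medians were 0.966 and 1.05. Occupancy has no replicate error, 3 subunits had under 100 reads, and shared sequence limits PPP2CA, PPP3R1 and PPP1R14B most.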

Other observations

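Of the subunits that only the occupancy table lists under a PPP symbol, PPP4R3A had the most reads, 10116. Its mean CDS occupancy was 0.0542 and its ratio of last to first window 2.17 with 75 codons, whereas its paralog PPP4R3B had 0.0324 and 1.26. With 50 codons the ratio was 5.37 for PPP4R3A and 2.21 for PPP4R3B. Mean CDS occupancy was 0.0547 for PPP1R21, a subunit found on endosomes, and 0.0238 for PPP1R9A (neurabin, an actin-binding relative of PPP1R9B). For PPP1R3B, which directs PP1 to glycogen in liver, it was 0.0669 with 373 reads. The lowest mean CDS occupancy was that of PPP1R26, at 0.00290 with 68 reads. PPP1R13B carried most of its ribosomes early: its first 75 codons had a mean of 0.241 and its last 75 one of 0.0238. PPP2R3C had 139 reads in the 5′UTR, 5.89% of its reads.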
